A study of Tuber melanosporum with 9 samples.

Results

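TmelDnmt2 (GSTUMT00003328001) is 1 of the 7496 genes of the black truffle Tuber melanosporum in the deposited expression tables, and was taken by its identifier. The gene was followed over 4 RNA libraries and 5 bisulfite libraries, each made from 1 sample without replicates. FB was a collected mature fruitbody whose strain is not stated. FLM was free-living mycelium of the Mel28 strain grown on malt agar. The 5-aza-treated mycelium was Mel28 grown in liquid medium for 45 days, with 100 µM 5-azacytidine added every 5 days, and the untreated mycelium was its parallel culture that received water. ECM, ectomycorrhizal tips formed with common hazel, had a bisulfite library that also held root cells of the host, and no RNA library was analysed here. FLM and untreated mycelium thus share the strain and the lack of 5-azacytidine but differ in medium, growth time, experiment and gene table, and these differences cannot be told apart. Between FB and the mycelia, stage and growth vary together as well.

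DNA methyltransferases of the DIM-2 class, in which the study places TmelDnmt2, put methyl groups on cytosines. In Neurospora crassa, where the class was named, DIM-2 is recruited by the heterochromatin protein HP1, which reads a histone mark written by the methyltransferase DIM-5. The other truffle enzyme, TmelDnmt1, belongs to the RID/Masc1 class, whose founding members act on repeated DNA in the sexual cycle of other filamentous fungi. Despite its name, TmelDnmt2 is not assigned to the DNMT2 family of transfer RNA methyltransferases.

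TmelDnmt2 had low RNA levels in FB and agar-grown FLM and higher levels in both liquid cultures. Which of FB and FLM was the lower depended on the scaling. It was counted with 661 reads in FB, 569 in FLM, 2209 in 5-aza-treated and 2490 in untreated mycelium. In CPM, the reads on a gene for every 1000000 reads on genes in its library, the level was 28.3 in FB (95% Poisson interval 26.1 to 30.5) and 23.9 in FLM (22.0 to 25.9). The level was 101 CPM in 5-aza-treated mycelium (97.1 to 106) and 111 CPM in untreated mycelium (107 to 115). Both liquid cultures therefore lay far above FB and FLM, and within each of these pairs the counting intervals were separated by a narrow margin. These intervals cover counting error only, so that variation between cultures or fruitbodies cannot be judged. Lower transcript content per cell and fewer cells that carry the transcript cannot be told apart in such bulk samples.

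**Figure D1:**
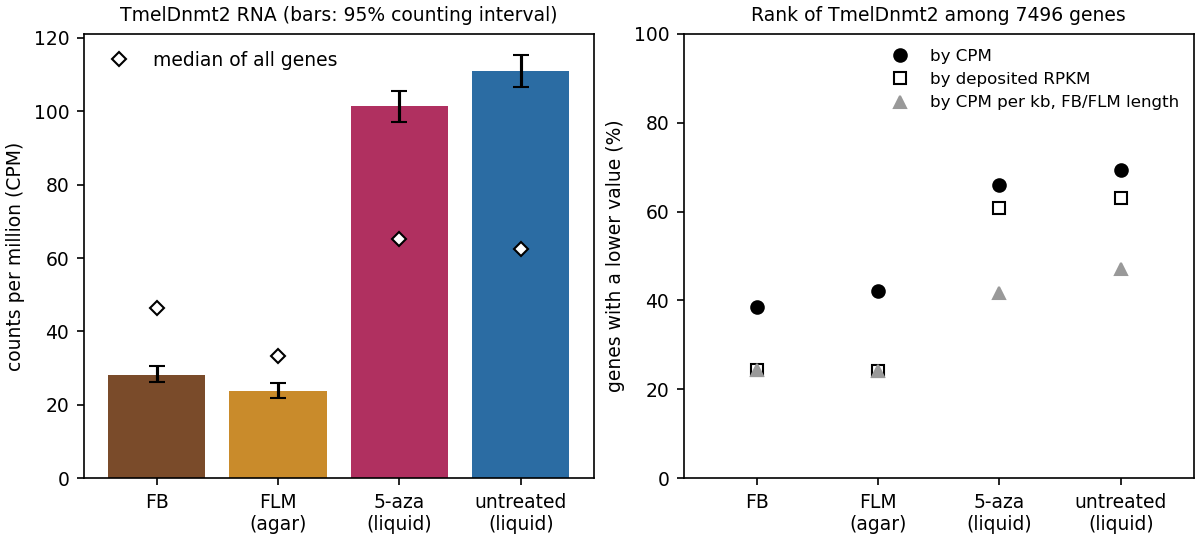
The left panel plots the TmelDnmt2 level in CPM in each of the 4 RNA libraries with its 95% counting interval, and diamonds mark the median of all genes. The right panel plots the percentage of the 7496 genes with a lower value by 3 measures. In CPM the level was below the median gene in FB and FLM and above it in both liquid cultures. By CPM per kb of the length in the table of FB and FLM, it was below the median gene in all 4 libraries.

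By CPM, TmelDnmt2 ranked 4614th in FB, 4343rd in FLM, 2559th in 5-aza-treated and 2294th in untreated mycelium among the 7496 genes. The median gene had 46.3 CPM in FB and 33.3 CPM in FLM, above TmelDnmt2 in both. In the liquid cultures the median gene had 65.1 CPM with 5-azacytidine and 62.4 CPM without, below TmelDnmt2. Because long genes collect more reads, the rank was also taken per length from the deposited RPKM, in which reads are divided by the listed gene length and by the mapped total. TmelDnmt2 had an RPKM of 2.77 in both FB and FLM, where 24.2% of genes were lower. In the table of the liquid cultures 60.7% of genes had a lower RPKM with 5-azacytidine and 63.0% without. That table lists a length of 293 bp for TmelDnmt2, against 3218 bp in the table of FB and FLM, and its RPKM is not compared with theirs. With CPM divided by the 3218 bp length in all libraries, a measure added after seeing the data, 41.6% of genes were lower in 5-aza-treated and 47.1% in untreated mycelium. On this scale TmelDnmt2 was below the median gene in all 4 libraries, whereas by deposited RPKM it was above it in both liquid cultures. Which exons were counted for the liquid cultures is not known, so its place there depends on the length taken.

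The comparison of FLM with untreated mycelium asks how agar and liquid cultures of 1 strain differ. TmelDnmt2 was 4.64-fold lower in FLM, with 23.9 CPM in FLM and 111 CPM in untreated mycelium. The ratio of FLM over untreated was 0.215 (exact 95% interval 0.196 to 0.236), or -2.22 on the log2 scale. With reads on genes as the total, the genes at large were also lower in FLM, though by less. The median log2 ratio over the 7231 genes with at least 10 reads in the pair was -0.82, and 43.5% of them were at least 2-fold lower in FLM, against 10.7% at least 2-fold higher. The ratio of TmelDnmt2 was 2.63-fold lower than that median ratio, a log2 difference of -1.40. A lower log2 ratio was seen in 809 genes, or 11.2%.

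The size of the change depended on the scaling. A scaling moves all genes of a library alike, so the distance to the median gene is the same under each by construction. With median-of-ratios size factors, which place the typical gene at no change, the ratio was 0.385, and with TMM it was 0.372. Under those size factors 19% of genes were at least 2-fold lower and 21.8% at least 2-fold higher in FLM. TmelDnmt2 was at least 2-fold lower in FLM than in untreated mycelium under every scaling that was run. Against 5-aza-treated mycelium, the ratio of FLM was 0.236 (0.215 to 0.259), where 46.4% of genes were at least 2-fold lower in FLM and 10.2% at least 2-fold higher. With size factors it was 0.442, beside 18.5% lower and 21.9% higher.

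**Figure D2:**
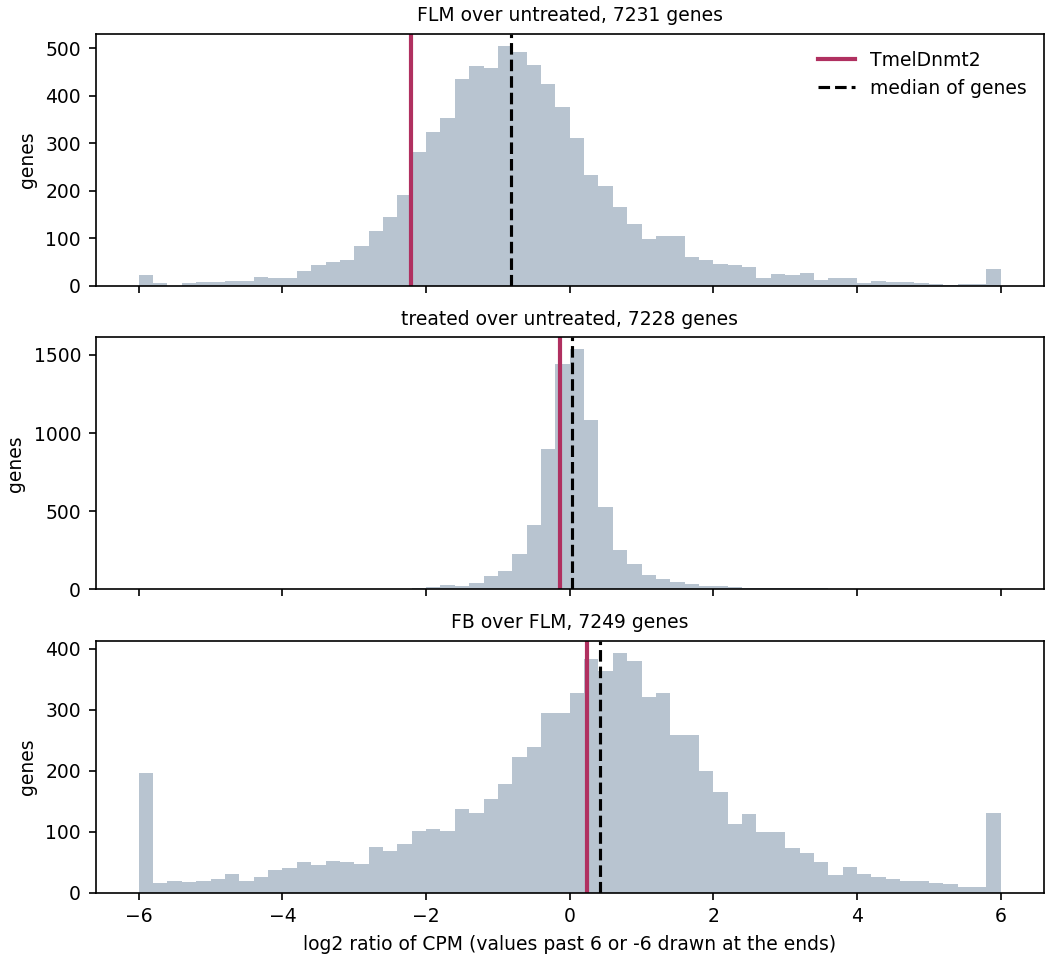
The histograms show the log2 ratio of CPM over genes with at least 10 reads in each pair of libraries, with TmelDnmt2 as a solid line and the median gene as a dashed line. TmelDnmt2 lay at -2.22 in FLM over untreated, where the median was -0.82, and close to the median gene in the other 2 comparisons.

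The length listed for the liquid cultures raised the question of whether the rows of both tables describe the same genes. Read counts of FLM and untreated mycelium had a Spearman correlation of 0.83 across the 7496 genes, which are not independent replicates. The listed length was equal in 2.84% of genes only. A correlation over all genes cannot settle the question for the row of TmelDnmt2 by itself. Which exons of TmelDnmt2 were counted for the liquid cultures is not known, and the part of this in the ratio was not tested. TmelDnmt2 is also a long gene, with 90.4% of genes shorter in the table of FB and FLM. Across 7201 genes, length and the log2 ratio of FLM over untreated had a Spearman correlation of 0.14. Genes of 3000 to under 5000 bp had a median log2 ratio of -0.51, so long genes were less reduced in FLM than the median gene. Of these 791 genes, 3.92% had a ratio at or below that of TmelDnmt2.

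**Figure D3:**
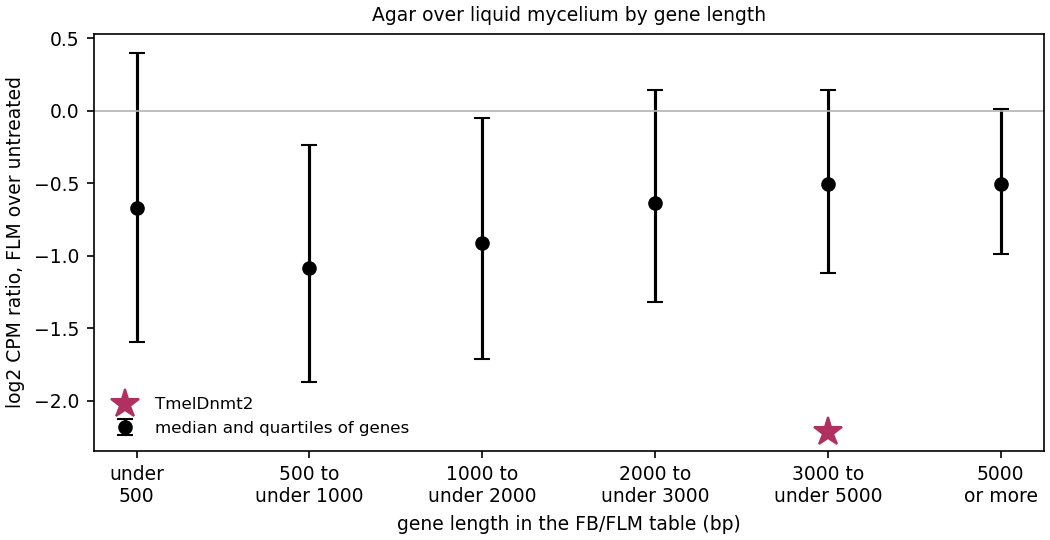
Points give the median log2 ratio of CPM, FLM over untreated, for genes grouped by listed length, with bars from the lower to the upper quartile, and the star marks TmelDnmt2. The star at -2.22 lies below the lower quartile of its length group, whose median is -0.51.

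5-Azacytidine is a cytosine analogue that traps DNA methyltransferases once it is built into DNA. TmelDnmt2 had 101 CPM in 5-aza-treated and 111 CPM in untreated mycelium, a ratio of 0.913 (0.862 to 0.968). The interval left out equality for counting error, yet a smaller change in either direction was seen in only 28.6% of the 7228 genes. At least 2-fold higher and at least 2-fold lower genes made up 4.98% and 2.86% of them. TmelDnmt2 was among neither.

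Between the developmental stages, TmelDnmt2 had 28.3 CPM in FB and 23.9 CPM in FLM, a ratio of 1.18 (1.06 to 1.33). In this comparison 34.9% of genes were at least 2-fold higher in FB and 22.7% at least 2-fold lower, and TmelDnmt2 was in neither group. The direction was not stable, since the ratio was 0.962 when reads on classified repeats were added to the totals and 0.881 with size factors. FB had 5592136 reads on classified repeats and FLM 194684. Against untreated mycelium, TmelDnmt2 was 3.93-fold lower in FB, a ratio of 0.255 (0.233 to 0.278), where 34.2% of genes were at least 2-fold lower and 17.2% at least 2-fold higher. The median log2 ratio of all genes was -0.41 there, and the ratio of TmelDnmt2 was 2.95-fold lower than that median ratio.

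The 5 other genes of the methylation machinery differed in how far their levels followed those of TmelDnmt2. In FLM over untreated, 1 of the 5 was at least 2-fold lower and none was at least 2-fold higher, with a median log2 ratio of -0.65 beside -0.82 for all genes. Over all genes, 43.5% were at least 2-fold lower and 10.7% at least 2-fold higher, so that 1 of 5 was not above the general share. The lower one was the homolog of DMM-1, which in Neurospora limits the spread of methylation, at a ratio of 0.486 (0.454 to 0.519). The homolog of HP1 had a ratio of 0.511 (0.491 to 0.532) and TmelDnmt1 one of 0.635 (0.582 to 0.693). The homologs of DIM-5 and of the phosphatase PP1 had ratios of 1.40 and 1.33. TmelDnmt2, at 0.215, had the lowest ratio of these 6 genes in FLM over untreated. Size factors were a scaling added for these genes after seeing the data. With them the ratios were 0.385 for TmelDnmt2, 0.868 for the DMM-1 homolog, 0.913 for the HP1 homolog and 1.14 for TmelDnmt1. The DIM-5 homolog had 2.50 and the PP1 homolog 2.37. The direction thus turned for TmelDnmt1. None of the 5 was at least 2-fold lower, beside 19% of all genes. The DIM-5 and PP1 homologs were at least 2-fold higher, beside 21.8% of all genes. In FB over untreated, with reads on genes as the total, TmelDnmt2 did not have the lowest ratio of the 6 genes. The HP1 homolog had a ratio of 0.182 (0.171 to 0.193) and the DMM-1 homolog one of 0.221 (0.202 to 0.242), against 0.255 for TmelDnmt2. In that comparison 2 of the 5 genes were at least 2-fold lower and 2 at least 2-fold higher, beside 34.2% and 17.2% of all genes.

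None of the 5 was past 2-fold in 5-aza-treated over untreated mycelium, as for most genes, of which 4.98% were higher and 2.86% lower. TmelDnmt1 had a ratio of 1.64 (1.53 to 1.76) there. In FB over FLM, TmelDnmt1 was 9.28-fold and the DIM-5 homolog 3.17-fold higher, whereas the homologs of HP1 and DMM-1 had ratios of 0.356 and 0.456. These 2 of 5 in each direction stand beside 34.9% of all genes at least 2-fold higher and 22.7% at least 2-fold lower. Divided by the lengths in the table of FB and FLM, the level of TmelDnmt2 over that of TmelDnmt1 was 0.0962 in FB, 0.755 in FLM, 1.24 in 5-aza-treated and 2.23 in untreated mycelium. On these lengths TmelDnmt2 was the lower of both enzymes in FB and FLM and the higher one in the liquid cultures. For the liquid cultures another length is listed for TmelDnmt2 and the exons counted are not known. The part of this in the order of both enzymes was not tested.

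**Figure D4:**
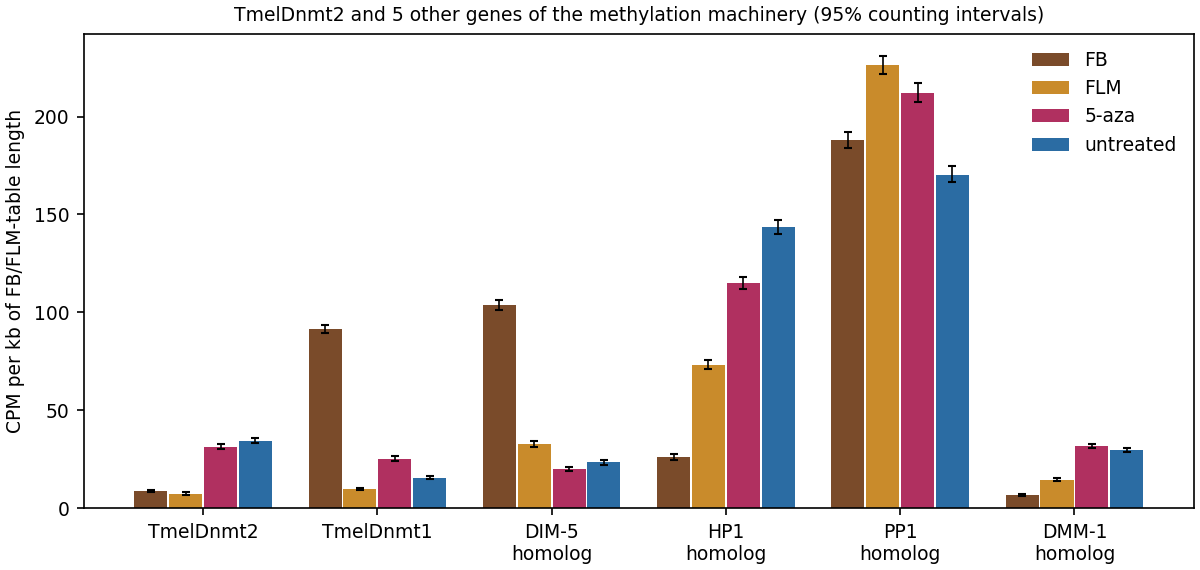
Bars give the level of TmelDnmt2 and 5 other genes in CPM per kb of the length in the table of FB and FLM, with 95% counting intervals, in the 4 RNA libraries. TmelDnmt2 is lower in FB and FLM than in both liquid cultures, as are the homologs of HP1 and DMM-1 (with size factors the HP1 homolog turned in FLM over 5-aza-treated mycelium, at a ratio of 1.20), whereas TmelDnmt1 and the DIM-5 homolog are highest in FB.

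The genes whose levels over the 4 libraries were most like those of TmelDnmt2 were sought among 6814 genes with at least 10 reads in each library. Likeness was the Euclidean distance between log2(CPM + 0.5) values centred on each gene's mean. The nearest was GSTUMT00007496001 at a distance of 0.11, with 12.5 CPM in FB, 9.66 in FLM, 45.3 in 5-aza-treated and 50.9 in untreated mycelium. It was followed by GSTUMT00007940001 (0.13), GSTUMT00010685001 (0.13), GSTUMT00000007001 (0.14) and GSTUMT00007461001 (0.14). Only 1 of these 5 remained among the nearest with a pseudocount of 5, so the list depends on that choice.

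TmelDnmt2 lies on scaffold 169, from 116129 to 119557 in assembly ASM15164v1, a span of 3429 bp that exceeds the listed exon length by 211 bp. The annotation used here gives neither strand nor exon positions. The next gene on the low-coordinate side, GSTUMT00003327001, is 651 bp away, and the next on the other side, GSTUMT00003331001, is 58266 bp away. This gap is longer than 95% of the 7044 gaps between genes, with 56.0% of it covered by 32 annotated repeats. Both flanking genes were lower in FLM than in untreated mycelium. GSTUMT00003327001 had 7.01 CPM in FLM and 23.3 CPM in untreated mycelium, a ratio of 0.302 (0.252 to 0.360). GSTUMT00003331001 had 41.5 CPM in FLM and 115 CPM in untreated mycelium, a ratio of 0.360 (0.334 to 0.388). The genes next to these, GSTUMT00003326001 and GSTUMT00003332001, had ratios of 1.51 and 1.06. With reads on genes as the total, 2 of the 4 neighbours were thus at least 2-fold lower in FLM. This stood beside 43.5% of all genes, a share too near for a statement about the locus. The ratios of the neighbours were not computed with size factors, under which 19% of all genes were at least 2-fold lower.

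The body of TmelDnmt2 was nearly free of CG methylation in every library. The mean level of its CG cytosines was 0.464% in FB over 357 sites, with 51 methylated of 10754 reads. It was 0.220% in FLM over 357 sites, with 23 of 9889 reads. It was 0.332% in 5-aza-treated mycelium, with 9 of 3098 reads, and 0.348% in untreated mycelium, with 10 of 2601 reads. In ECM 1 of 222 reads was methylated. In all these numbers a read is counted once at each cytosine it covers, so they are not numbers of separate reads. The median gene had 0.485% in FB, 0.268% in FLM, 0.313% in 5-aza-treated and 0.335% in untreated mycelium, close to the level of TmelDnmt2 in each.

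No CG site of the gene body with at least 4 reads reached 50% in FB, FLM or the liquid cultures, and the highest were 7.69% in FB, 7.14% in FLM, 25.0% in 5-aza-treated and 28.6% in untreated mycelium. Levels in the CHG context, where H is any base but G, were 0.232%, 0.300%, 0.320% and 0.0873% in the same order of libraries. In the CHH context they were 0.414%, 0.275%, 0.282% and 0.239%. In CHG, 4.03% of genes were lower than TmelDnmt2 in FB, 65.7% in FLM, 58.1% in 5-aza-treated and 10.7% in untreated mycelium. The CHG level in untreated mycelium came from 2 methylated of 2221 reads. In CHH the shares of lower genes were 28.9%, 56.2%, 41.1% and 24.3%. The median gene had 0.473% in CHG and 0.472% in CHH in FB, and 0.261% and 0.265% in FLM, close to its CG level in each. How much of such low levels came from incomplete bisulfite conversion was not tested. ECM had a higher mean level in CHH, 1.98% over 454 cytosines, and 92.5% of genes were lower there. That level came from 9 methylated of 581 reads (pooled exact interval 0.711 to 2.92%). How many separate molecules gave these 9 was not examined. In CHG 0 of 183 ECM reads were methylated, with an exact upper limit of 2%. In CG, FLM had 0.220% and untreated mycelium 0.348%. The exact intervals of the pooled reads, 0.147 to 0.349% in FLM and 0.185 to 0.706% in untreated mycelium, overlapped. Whether these libraries differ was not tested.

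The gene sits in a stretch of 11961 bp without annotated repeats, together with 3 other genes, between 2 blocks of strongly methylated DNA. Across that stretch CG methylation averaged 0.811% in FB, 0.290% in FLM, 0.476% in 5-aza-treated and 0.431% in untreated mycelium. In the 10 kb beyond it on the low-coordinate side, CG methylation was 78.9% in FB, 77.1% in FLM, 77.7% in 5-aza-treated and 73.0% in untreated mycelium. On the high-coordinate side it was 86.5%, 89.3%, 90.1% and 88.3%. The edges of the unmethylated stretch lay in the same windows of 1 kb in FB, FLM and both liquid cultures.

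**Figure D5:**
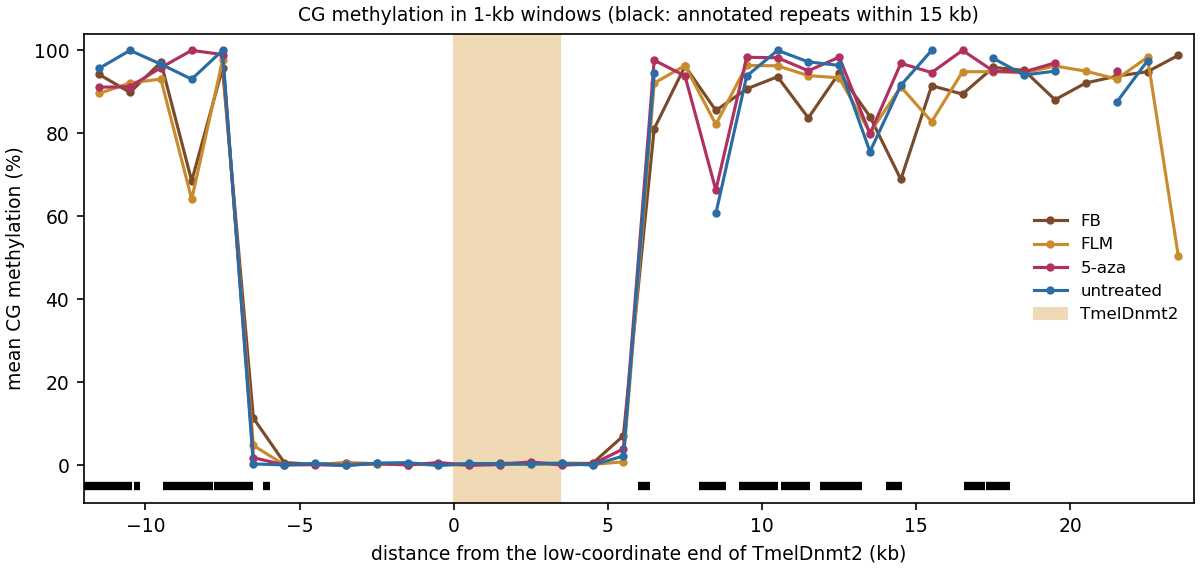
Lines give mean CG methylation in windows of 1 kb against the distance from the low-coordinate end of TmelDnmt2 in 4 libraries, with the gene shaded and annotated repeats within 15 kb drawn in black. Levels are near 0 over the gene and rise to between 60 and 100% in most windows beyond the repeats on both sides.

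Of the 17 repeats within 15 kb, 10 have no class. The nearest on the low-coordinate side, 5970 bp away, is a Tc1/Mariner fragment of 223 bp, a family of cut-and-paste DNA transposons. It was unmethylated, with 0 of 525 CG reads in FB and 1 of 550 in FLM. The FB count allows a level of up to 0.571%, if reads at neighbouring cytosines are taken as independent. In 5-aza-treated mycelium 0 of 121 CG reads were methylated, which allows up to 2.48%, and in untreated mycelium 0 of 87, which allows up to 3.45%. The other 13 repeats with at least 4 CG sites had 77.6 to 97.4% in FB and 83.7 to 97.9% in FLM. The fragment was also the only 1 of the 17 with RNA reads, namely 0 in FB, 1 in FLM, 4 in 5-aza-treated and 1 in untreated mycelium, too few for a comparison. The nearest repeat on the other side, 2562 bp away, has no class and only 2 CG sites.

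DNA read depth over the gene was examined because gene copies could move read counts. Mean depth per listed cytosine was 1.44 times the genome mean in FB, 1.34 in FLM, 0.970 in ECM, 1.02 in 5-aza-treated and 1.04 in untreated mycelium. Against the median gene it was 1.10, 1.07, 0.926, 0.918 and 0.884 in that order, each between the 5th and the 95th percentile of genes. The part of gene copies in the RNA ratios was not tested.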

How the data were processed

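RNA was measured in 4 libraries and DNA methylation in 5. The authors aligned RNA reads with TopHat (TopHat2 2.0.4 in the submitters' notes) and deposited raw HTSeq (0.5.4p3) read counts per gene and repeat. For RPKM, the authors divided the deposited counts by the listed length and by 1 read total per library. The bisulfite calls, made with BS Seeker on assembly v1.0 (version not given in the sources used here), are deposited counts of methylated and all reads per cytosine. The deposited tables also hold fold changes and p-values of the authors' own comparisons from DESeq, and 4 columns of repeat RPKM, none of which were used. Scaffold lengths came from a deposited log.

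Gene coordinates came from RefSeq assembly ASM15164v1 for 7420 of 7496 genes. None ran past its scaffold's end in the deposited files. At the low end, 21.7% of genes had the last bases of a start codon in the place given by the annotation, against at most 4.18% at places 1 or 2 bases away. FB, FLM and ECM positions were shifted by 1 to count from 1.

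Reads on genes numbered 21802480 to 23816308 per RNA library, and mean depth per listed cytosine ran from 1.35 in ECM to 20.1 in FB. CPM used reads on genes as the total. Ratios carry exact conditional intervals and levels exact Poisson intervals at 95%, for counting error only, since reads carry no molecular identifiers. With 1 library per condition no test was made, and a change was counted as called at 2-fold, among genes with at least 10 reads in the pair. Methylation levels are means over cytosines with at least 4 reads (1 in ECM), and a gene or repeat needed 4 such cytosines. Pooled methylated and all reads are sums over cytosines, so a read counts once at each cytosine it covers. The exact intervals and upper limits of methylation take these counts as independent and may be too narrow. Other scalings included TMM from edgeR 4.0.16, run in R 4.3.3. Other work used Python 3.11.15, numpy 2.4.6, scipy 1.17.1, pandas 2.3.3 and matplotlib 3.10.9, and the ratio and interval steps were tested on simulated data.

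Genes named in the text were TmelDnmt2, 5 machinery genes with identifiers from the study, the nearest 2 genes on each side, the 5 genes of most similar levels, and the nearest repeat on each side. The gene and these lists were chosen with earlier results of these data known.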

Additional observations from a re-analysis of the deposited data

How the results depend on the processing

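Other scalings gave 29 further ratios over the 5 RNA comparisons, and none reversed a change of at least 2-fold. In treated over untreated and in FB over FLM the main ratio was within 2-fold, so no reversal could be counted there. The direction of FB over FLM did change. The ratio of FLM over untreated was 0.385 with size factors, 0.372 with TMM and 0.192 with the authors' totals of FB and FLM exchanged. That exchange was added after seeing the data, because the totals behind the deposited RPKM stand in the opposite order in the methods. FLM over treated was 0.442, 0.420 and 0.211 under these 3 settings. FB over FLM was 0.962 with repeats in the total, 0.999 with the authors' totals, 0.881 with size factors, 0.905 with TMM and 1.35 with the exchanged totals. FB over untreated was 0.210, 0.222, 0.339 and 0.337 under the first 4 of these. The cause was not tested.

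Among genes with at least 10 reads, 19.3% in FB, 19.5% in FLM, 58.9% in treated and 61.1% in untreated mycelium had a lower RPKM than TmelDnmt2. By CPM the shares were 38.4%, 42.0%, 65.9% and 69.4%. By CPM per kb of the length listed for FB and FLM, added after seeing the data, they were 41.6% in treated and 47.1% in untreated mycelium. At a fold of 1.5, 18.9% of genes changed in treated over untreated mycelium. By median depth, DNA over the gene was 1.53 times the genome in FB, 1.42 in FLM, 1.00 in treated and 1.17 in untreated mycelium. Gene-body CG methylation in treated mycelium was 0.108% at sites with at least 10 reads. Of 147 methylation alternatives 7 moved beyond the counting interval, and outside ECM none exceeded 1.13%.

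No paired analysis was possible because each condition has 1 library. Differences between FLM and untreated mycelium therefore include any variation between cultures, libraries and gene tables.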
